A study of Caenorhabditis elegans with 64 samples.

Results

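Dicer and the ERI (enhanced RNAi) proteins were followed in Caenorhabditis elegans through 5 genes, dcr-1, rde-4, eri-1, eri-3 and eri-5, taken by name. Each was measured as mRNA and as the small RNAs that map to the gene. They are 5 of the 31106 genes in the small RNA tables and of the 45904 gene names in the mRNA tables. The study asked how loss of simr-1, a gene for a tudor domain protein, alters small RNAs and mRNAs, and how this changes when worms are raised for generations at a raised temperature. Wild-type worms of strain N2 were compared with simr-1(cmp36) mutants of strain USC863, all as whole worms labelled Day 1 Adult. Both genotypes were grown at 20C or for 1, 2, 7 or 10 generations at 25C, which gives 10 groups, each with 3 mRNA libraries and 2 small RNA libraries. A further 14 small RNA libraries, 1 per strain, came from worms of 20C. They were wild-type, rde-8(tm2252), Y57G11C.3(cmp47), C33G3.6(cmp44), simr-1(cmp36), hpo-40(cmp46), the simr-1(cmp36); hpo-40(cmp46) double mutant, wago-1(tm1414), math-33(ok2974), the nyn-2(tm4844); nyn-1(tm5004) double mutant, mut-16(pk710), hgo-1(tm4989), F37C4.5(ok3454) and rsd-2(pk3307). The simr-1 strain carries a single allele in whole animals, so no result is tied to a tissue, and in whole worms fewer cells of a type and less RNA per cell cannot be told apart. The harvest time differed between the temperatures, so temperature and time of harvest cannot be told apart. The labels do not say whether libraries of a group came from separate cultures, so p-values here measure the spread between these libraries.

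Dicer is the ribonuclease that cuts double-stranded RNA into small RNAs, and in C. elegans DCR-1 serves the microRNA, antiviral, exogenous RNAi and endogenous siRNA pathways. RDE-4 is a double-stranded RNA binding protein that delivers long double-stranded RNA to DCR-1. In the ERI complex, DCR-1 works with the RNA-dependent RNA polymerase RRF-3 and accessory proteins to make primary endogenous siRNAs, among them those of the male germline and those bound by the Argonaute ERGO-1 in oocytes and embryos. ERI-1 is a conserved exonuclease, ERI-3 is an accessory protein of the complex, and ERI-5 is a tudor domain protein that tethers RRF-3 to Dicer. Loss of eri-1, eri-3 or eri-5 makes worms more sensitive to introduced double-stranded RNA. Small RNAs that map to these genes are not products that the proteins make in general, but RNAs that match the gene itself on either strand.

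All 5 genes are protein coding in the annotation used by the study (release WS258, C. elegans genome WBcel235). dcr-1 (K12H4.8) lies on chromosome III from 8071916 to 8080281 on the minus strand and has 5934 exon bases. rde-4 (T20G5.11) lies on chromosome III from 10217302 to 10218646 on the minus strand, with 1204 exon bases. eri-1 (T07A9.5) lies on chromosome IV from 415635 to 419958 on the minus strand, with 2202 exon bases, and shares 21 bases with daf-18 on the same strand. eri-3 (W09B6.3) lies on chromosome II from 1123534 to 1127791 on the plus strand, with 1794 exon bases, and taf-6.1 begins 184 bases after it on the same strand. eri-5 (Y38F2AR.1) lies on chromosome IV from 2390821 to 2396263 on the plus strand, with 1821 exon bases. Its last 7 bases overlap Y38F2AR.10 on the opposite strand, and 2 short noncoding genes named Y38F2AR.19 lie antisense within it. The small RNA counting did not use strand, so reads from eri-5 and its antisense partners cannot be told apart where they overlap.

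The sequence around the annotated start is shown for rde-4 and eri-5, which had the largest and the smallest mRNA change between genotypes at generation 1 of 25C, and for dcr-1. Each window runs 5′ to 3′ from 250 bases before to 50 bases after the annotated start, in build WBcel235, at III:10218597-10218896 on the minus strand for rde-4, IV:2390571-2390870 on the plus strand for eri-5 and III:8080232-8080531 on the minus strand for dcr-1. Capitals mark the annotated start codon and, in dcr-1, a match to the letters of a heat shock element core.
rde-4: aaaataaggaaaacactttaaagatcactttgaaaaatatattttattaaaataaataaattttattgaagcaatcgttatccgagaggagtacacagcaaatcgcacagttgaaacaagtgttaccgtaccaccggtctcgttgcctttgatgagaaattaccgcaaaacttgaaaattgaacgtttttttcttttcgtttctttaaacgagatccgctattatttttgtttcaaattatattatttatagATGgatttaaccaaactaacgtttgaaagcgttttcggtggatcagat
eri-5: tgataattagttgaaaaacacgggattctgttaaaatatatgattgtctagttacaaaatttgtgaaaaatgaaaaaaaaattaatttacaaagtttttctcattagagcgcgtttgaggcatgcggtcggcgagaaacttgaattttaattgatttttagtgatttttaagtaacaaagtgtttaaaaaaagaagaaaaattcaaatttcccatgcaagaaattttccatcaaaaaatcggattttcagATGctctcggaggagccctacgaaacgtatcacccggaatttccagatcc
dcr-1: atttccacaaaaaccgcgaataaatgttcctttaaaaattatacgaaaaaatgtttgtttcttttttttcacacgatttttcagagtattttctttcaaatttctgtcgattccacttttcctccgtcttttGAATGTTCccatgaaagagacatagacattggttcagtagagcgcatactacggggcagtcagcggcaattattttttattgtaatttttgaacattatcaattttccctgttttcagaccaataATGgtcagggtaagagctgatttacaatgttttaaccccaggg
Because the study raised the temperature, the letters GAANNTTC and TTCNNGAA were searched on both strands, each being its own reverse complement. GAANNTTC occurs in 18.5% and TTCNNGAA in 18.9% of 19973 windows of the same length, and 32.5% hold at least 1 of them. Of the 5 genes, 1 window held a match, that of dcr-1. A match describes the letters only.

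mRNA tables held between 8055126 and 38633453 estimated counts per library, and the 20 replicated small RNA libraries between 2835252 and 12893224 counts on genes. The 13 single mutant libraries held 2392511 to 5710062 counts on genes, and the single wild-type library was far deeper, with 50329478. mRNA levels are counts per 1000000 counts (CPM) with TMM scaling over all 30 libraries, and small RNA levels are reads per 1000000 genome-mapped reads (RPM). The simr-1 gene itself read 6.86 to 26.3 CPM in 15 mutant mRNA libraries against 48.9 to 218 CPM in 15 wild-type libraries, and the ranges did not overlap. The share of mapped small RNA reads that fell on genes was 42.4 to 43.5% in wild-type at generation 1 and 62.1 to 62.7% in simr-1 mutants at generation 1, against 66.0 to 66.7% and 68.9 to 69.4% at 20C. The tests scaled libraries to the reads on genes (TMM) while RPM does not, and results that depend on this are named as they come.

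Per kilobase of exon, rde-4 had the highest median mRNA level of the 5 genes over all libraries, 156 CPM per kb. eri-1 followed at 40.2, eri-3 at 37, dcr-1 at 31.6 and eri-5 at 23.1 CPM per kb. Small RNAs had a similar order, with medians of 76.4 RPM per kb on rde-4, 35.4 on eri-3, 26.7 on eri-1, 21.7 on dcr-1 and 10.1 on eri-5. Between the lowest and the highest library, mRNA levels spanned 4.03-fold for dcr-1, 3.67-fold for rde-4, 3.49-fold for eri-3, 2.50-fold for eri-1 and 2.37-fold for eri-5. Small RNA levels in RPM spanned most on rde-4, 6.98-fold, and least on eri-5, 2.40-fold.

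**Figure D1:**
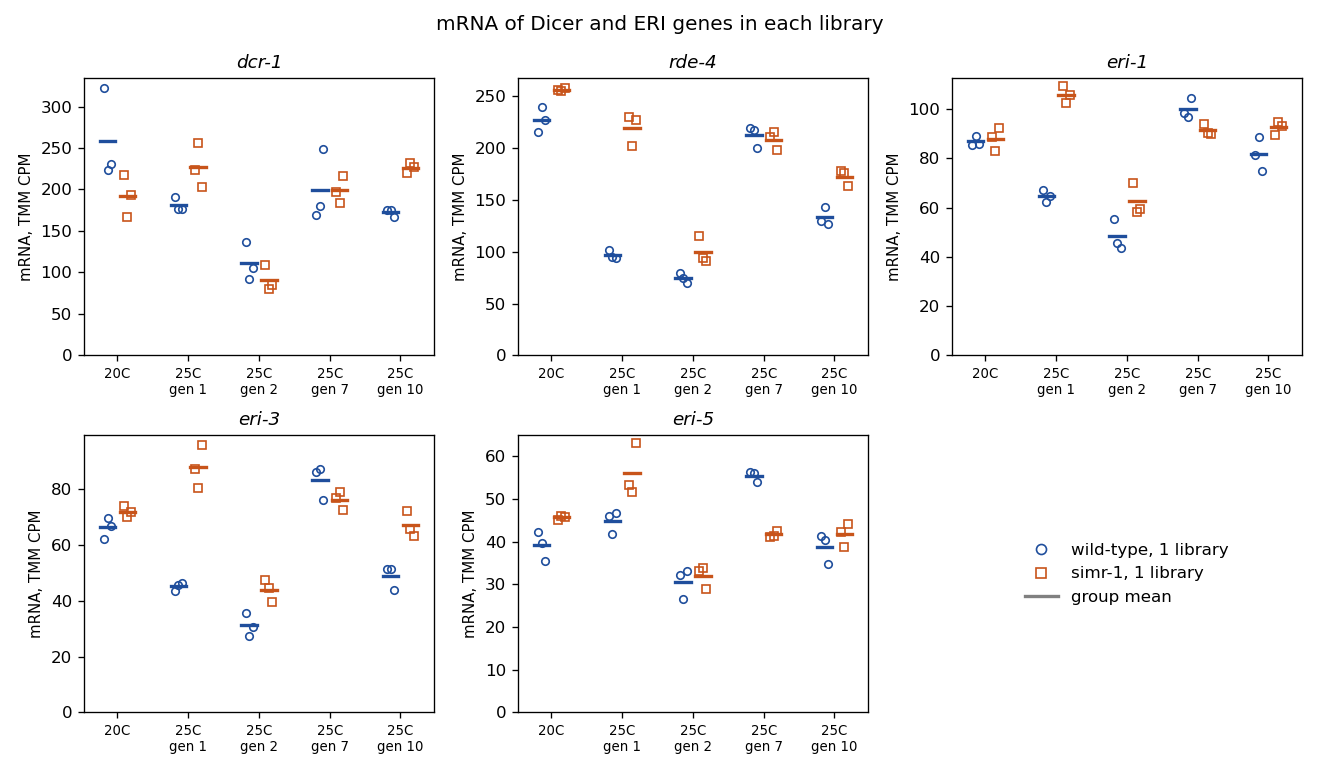
mRNA level in CPM of dcr-1, rde-4, eri-1, eri-3 and eri-5 in each of 30 libraries, by genotype and condition; points are libraries and short lines are group means. In wild-type at 25C generation 1 the 3 rde-4 libraries lie between 93.6 and 102 CPM, below the 3 simr-1 libraries at 202 to 230 CPM.

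In wild-type worms, the mRNA of 4 of the 5 genes fell between 20C and generation 1 at 25C, while 31.4% of all genes tested fell. Dicer mRNA read 322, 224 and 230 CPM at 20C and 191, 176 and 176 CPM at generation 1, and the groups did not overlap. dcr-1 fell by 0.53 on the log2 scale (SE 0.11, adjusted p = 5.3e-04, edgeR quasi-likelihood test with Benjamini-Hochberg adjustment over all genes, as for every adjusted p below). rde-4 mRNA read 215, 239 and 227 CPM at 20C and 102, 95 and 93.6 CPM at generation 1. All 3 libraries of generation 1 lay far below the lowest library of 20C. rde-4 fell by 1.24 (SE 0.07, adjusted p = 1.1e-10), the only member past 2-fold, a limit that 8.50% of all genes passed in this direction. eri-1 mRNA read 85.7, 89.2 and 85.9 CPM at 20C and 67.0, 62.4 and 64.6 CPM at generation 1, a fall by 0.44 (SE 0.07, adjusted p = 1.5e-05). eri-3 mRNA read 62.3, 69.8 and 67.0 CPM and then 43.6, 45.5 and 46.4 CPM, a fall by 0.57 (SE 0.07, adjusted p = 2.2e-06). These 4 calls held under every alternative run, and without wild-type replicate 1 of 20C the dcr-1 fall was 0.31 (adjusted p = 1.4e-04). eri-5, the tether between polymerase and Dicer, did not pass. It read 42.3, 39.6 and 35.5 CPM and then 45.9, 41.8 and 46.7 CPM, a log2 change of 0.17 (SE 0.08, adjusted p = 0.071), and its groups overlapped. Without wild-type replicate 1 of 20C it passed (0.26, adjusted p = 0.0065). The median over all genes tested was a log2 change of 0.28 in the same comparison, so the falls were larger when set against it.

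In simr-1 mutants the mRNAs were compared between the same conditions. Of the 5 genes 3 rose, where 23.5% of all genes rose, and rde-4 fell, where 19.7% of all genes fell. rde-4 mRNA read 256, 255 and 257 CPM at 20C and 230, 202 and 227 CPM at generation 1, a fall by 0.30 (SE 0.06, adjusted p = 4.3e-04). eri-1 mRNA read 88.6, 83.1 and 92.3 CPM and then 109, 103 and 106 CPM, and rose by 0.19 (SE 0.06, adjusted p = 0.011). eri-3 rose by 0.21 (SE 0.07, adjusted p = 0.014) and eri-5 by 0.22 (SE 0.08, adjusted p = 0.027). Dicer mRNA read 217, 167 and 193 CPM and then 223, 256 and 203 CPM, with a log2 change of 0.17 (SE 0.09, adjusted p = 0.16). Without simr-1 replicate 3 of generation 1, dcr-1 passed (adjusted p = 0.029), and eri-3 and eri-5 did not (adjusted p = 0.090 and 0.18). eri-5 also missed without simr-1 replicate 1 or 3 of 20C (adjusted p = 0.091 and 0.071).

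At generation 1 the mRNA of all 5 genes was higher in simr-1 mutants than in wild-type, where 31.8% of all genes rose. rde-4 rose by 1.19 (SE 0.07, adjusted p = 3.9e-12), the only member past 2-fold, where 7.98% of all genes passed that limit. eri-3 mRNA read 87.4, 80.3 and 95.9 CPM in the mutants, above all wild-type libraries, and rose by 0.97 (SE 0.07, adjusted p = 2.6e-10). eri-1 rose by 0.72 (SE 0.06, adjusted p = 2.9e-09). Dicer rose by 0.34 (SE 0.08, adjusted p = 7.4e-04). eri-5 mRNA read 53.3, 51.6 and 63.0 CPM in the mutants and rose by 0.33 (SE 0.08, adjusted p = 0.0011). The libraries of the genotypes did not overlap for any of the 5 genes. The share of all genes whose libraries did not overlap was not counted. rde-4 stood at the 93.5th percentile of the log2 changes of all genes tested, and eri-5 at the 68.7th. The median of all genes was −0.15. All 5 calls held under every alternative run. This comparison and the wild-type comparison of temperatures share the 3 wild-type libraries of generation 1, so the fall in one and the rise in the other are not separate measurements of those libraries.

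At 20C Dicer mRNA was lower in the mutants, by a log2 change of −0.50 (SE 0.13, adjusted p = 0.019), the 1 member that passed, where 11.9% of all genes fell. Without simr-1 replicate 2 or replicate 3 this call was lost (adjusted p = 0.087 and 0.083), and without wild-type replicate 1 the dcr-1 value was −0.30 (adjusted p = 0.0047) and eri-5 passed (adjusted p = 0.040). Of 5 intestine markers 4 fell as well at 20C, with a median of −0.68. Their sum read 36578 to 55532 CPM in wild-type and 26471 to 27948 CPM in the mutants. Of 7 germline markers 2 fell and 0 rose, and of 7 oocyte markers 2 fell and 1 rose. Of 5 sperm markers tested 1 fell, and of 3 body wall muscle markers 1 fell. At generation 1, 4 intestine markers also fell in the mutants and 1 rose, while dcr-1 rose. The part of any of these tissues in the dcr-1 values was not tested. rde-4, eri-1, eri-3 and eri-5 had log2 differences of 0.11, −0.05, 0.05 and 0.15, with adjusted p of 0.18 or more. The difference between the simr-1 effects at generation 1 and at 20C was tested itself, and it passed for 4 of the 5 genes, where 25.9% of all genes passed upward. It was 1.03 for rde-4 (SE 0.09, adjusted p = 1.7e-09), past 2-fold, where 6.59% of all genes were. It was 0.87 for eri-3 (SE 0.10, adjusted p = 1.0e-07), 0.79 for dcr-1 (SE 0.16, adjusted p = 3.0e-04) and 0.72 for eri-1 (SE 0.09, adjusted p = 2.6e-07). For eri-5 it was 0.14 (SE 0.12, adjusted p = 0.35).

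**Figure D2:**
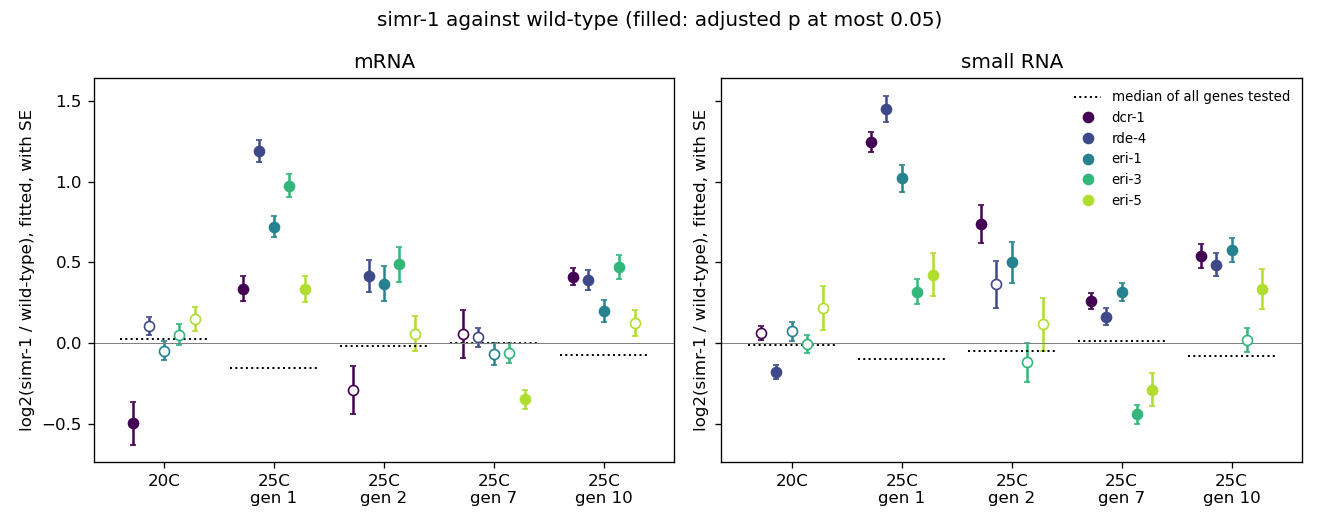
log2 fold change of simr-1 over wild-type for each of the 5 genes in each condition, for mRNA and for small RNA; points are edgeR estimates, filled where adjusted p was at most 0.05, error bars are standard errors and dotted lines are the medians of all genes tested. Generation 1 holds the highest rde-4 points, 1.19 for mRNA and 1.45 for small RNA.

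The genotypes were then compared at later generations. At generation 2, 3 members rose in the mutants, where 22.1% of all genes rose. rde-4 read 79.5, 75.0 and 70.2 CPM in wild-type and 115, 94.0 and 91.2 CPM in the mutants, a rise by 0.41 (SE 0.10, adjusted p = 0.0077). eri-1 rose by 0.37 (SE 0.11, adjusted p = 0.018) and eri-3 by 0.49 (SE 0.11, adjusted p = 0.0048). Dicer and eri-5 had log2 differences of −0.29 (SE 0.15) and 0.06 (SE 0.11), and their libraries overlapped between genotypes. The eri-1 call was lost without wild-type replicate 3 or simr-1 replicate 1 (adjusted p = 0.069 and 0.087), and without simr-1 replicate 1 dcr-1 passed as a fall by 0.44 (adjusted p = 0.048). All 5 genes had their lowest group mean at generation 2, dcr-1 in the mutants and the other genes in wild-type.

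At generation 7 only eri-5 passed, and it fell in the mutants, where 12.1% of all genes fell. eri-5 mRNA read 56.3, 56.1 and 54 CPM in wild-type and 41.1, 41.3 and 42.6 CPM in the mutants, a fall by 0.35 (SE 0.06, adjusted p = 0.0039). The other members had log2 differences between −0.07 and 0.06, with adjusted p of 0.48 or more. Without wild-type replicate 3 dcr-1 passed (0.26, adjusted p = 0.023). At this generation 4 of 7 oocyte markers fell in the mutants and 0 rose, with a median of −0.24. Of 7 sperm markers 5 rose and 0 fell, with a median of 1.67. At generation 10, 4 members rose, where 20.9% of all genes rose. Dicer mRNA read 175, 175 and 167 CPM in wild-type and 220, 232 and 227 CPM in the mutants, and rose by 0.41 (SE 0.05, adjusted p = 7.4e-06). rde-4 read 129, 143 and 127 CPM and 178, 175 and 163 CPM, and rose by 0.39 (SE 0.06, adjusted p = 7.4e-05). eri-3 rose by 0.47 (SE 0.08, adjusted p = 8.4e-05) and eri-1 by 0.20 (SE 0.07, adjusted p = 0.021). eri-5 had a log2 difference of 0.13 (SE 0.08, adjusted p = 0.21), and its libraries overlapped. The eri-1 call was lost when wild-type replicate 1 or 3 or simr-1 replicate 2 or 3 was left out (adjusted p = 0.061, 0.059, 0.091 and 0.061), and when libraries were scaled by their totals alone (0.15). In the same libraries all 7 germline markers rose, with a median of 0.29 and sums of 1991 to 2177 CPM in wild-type and 2757 to 2826 CPM in the mutants. All 7 oocyte markers rose too, with a median of 0.18 and sums of 6298 to 6419 and 7021 to 7448 CPM. Of 6 sperm markers tested 4 rose and 0 fell, with a median of 0.69. The part of these markers' tissues in the members' rise was not tested.

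From generation 1 to generation 10, wild-type rde-4 rose by 0.49 (SE 0.06, adjusted p = 3.9e-06) and eri-1 by 0.37 (SE 0.07, adjusted p = 1.7e-04), the 2 members that passed, where 32.6% of all genes rose. In the mutants 3 members fell, where 21.4% of all genes fell. They were rde-4, by 0.18 (SE 0.06, adjusted p = 0.025), eri-3, by 0.22 (SE 0.07, adjusted p = 0.020), and eri-5, by 0.25 (SE 0.08, adjusted p = 0.018). All 3 calls were lost without simr-1 replicate 3 of generation 1 (adjusted p = 0.052, 0.082 and 0.089). rde-4 and eri-3 were lost without replicate 1 of generation 1 (0.17 and 0.062) or replicate 3 of generation 10 (0.15 and 0.13), and eri-3 and eri-5 without replicate 2 of generation 10 (0.068 and 0.086). Scaled by library totals alone, all 3 were lost (adjusted p = 0.12 to 0.27). Without wild-type replicate 3 of generation 10 eri-3 passed in wild-type (adjusted p = 0.0068), and without replicate 2 of generation 1 eri-5 passed as a fall (adjusted p = 0.035). In the mutants dcr-1 passed without replicate 2 of generation 1 (0.29, adjusted p = 4.0e-04). The simr-1 effect fell from generation 1 to generation 10 for 3 members, where 19.4% of all genes fell. The difference was −0.65 for rde-4 (SE 0.09, adjusted p = 2.7e-06), −0.37 for eri-1 (SE 0.09, adjusted p = 0.0016) and −0.35 for eri-3 (SE 0.11, adjusted p = 0.0088). Without wild-type replicate 3 of generation 10 the eri-1 and eri-3 values were −0.58 and −0.57, and without simr-1 replicate 1 of generation 10 that of eri-3 was −0.55. For dcr-1 it was 0.23 (SE 0.10, adjusted p = 0.074), and without simr-1 replicate 2 of generation 1 it passed (0.33, adjusted p = 0.0023). For eri-5 it was −0.06 and passed without wild-type replicate 3 of generation 10 (−0.28, adjusted p = 0.041).

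**Figure D3:**
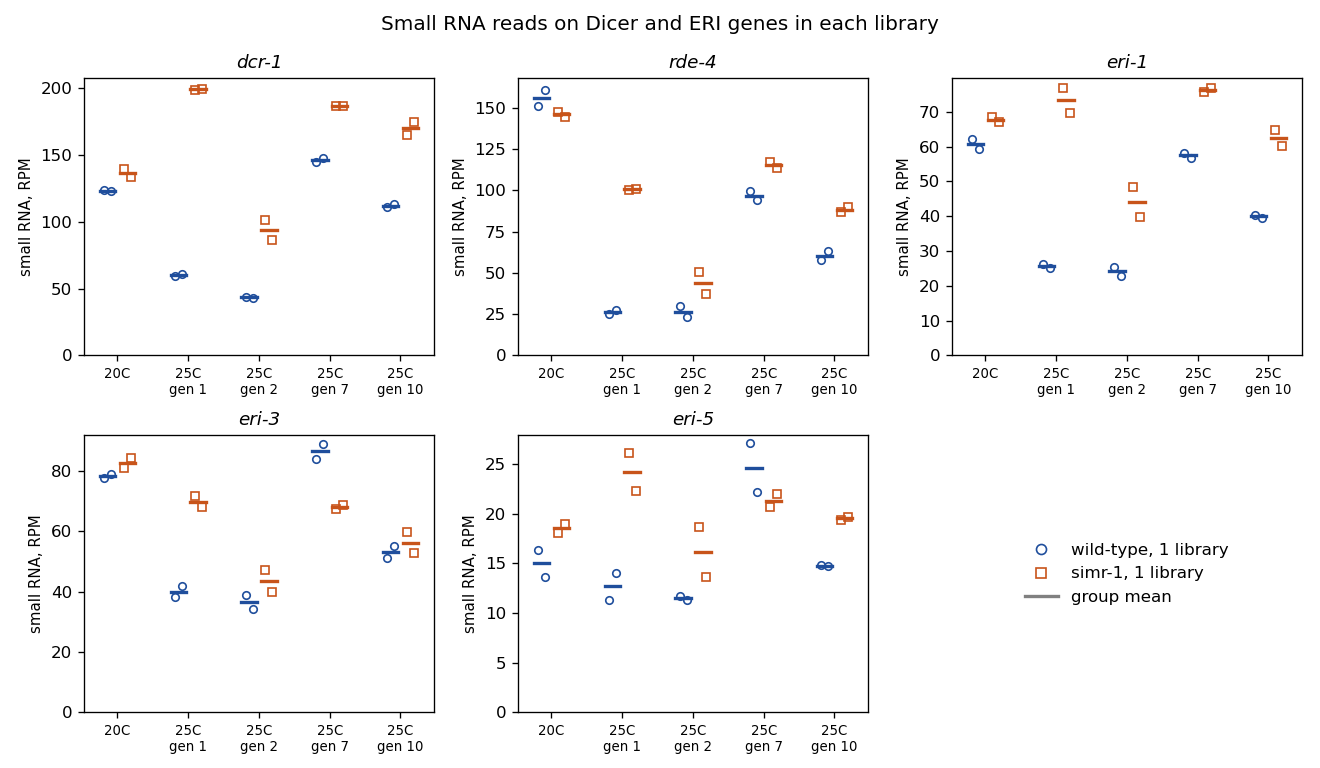
Small RNA level in RPM on dcr-1, rde-4, eri-1, eri-3 and eri-5 in each of 20 libraries, by genotype and condition; points are libraries and short lines are group means. Both wild-type libraries of generation 1 lie near 60 RPM on dcr-1, and both simr-1 libraries lie at 199 RPM.

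Small RNAs on the genes were compared in the same way. At generation 1 all 5 genes carried more small RNA in simr-1 mutants than in wild-type, where 35.7% of all genes rose. dcr-1 small RNAs read 59.4 and 61.3 RPM in wild-type and 199 and 199 RPM in the mutants. They rose by 1.25 on the log2 scale of the test (SE 0.06, adjusted p = 1.2e-08). rde-4 small RNAs read 25.2 and 27.8 RPM in wild-type and 101 and 101 RPM in the mutants, and rose by 1.45 (SE 0.08, adjusted p = 3.3e-08). eri-1 small RNAs read 26.4 and 25.2 RPM and 76.9 and 69.8 RPM, and rose by 1.02 (SE 0.08, adjusted p = 6.3e-07). These 3 members passed 2-fold, where 17.5% of all genes did. With 1 library left out eri-1 read 0.91 to 0.96, under 2-fold each time. eri-3 small RNAs read 38.4 and 41.8 RPM and 71.7 and 68.0 RPM, and rose by 0.32 (SE 0.08, adjusted p = 0.0038). eri-5 small RNAs read 11.4 and 14.0 RPM and 26.1 and 22.3 RPM, and rose by 0.42 (SE 0.13, adjusted p = 0.014). The calls for eri-3 and eri-5 were lost with DESeq2 (adjusted p = 0.055 and 0.11). They were also lost without wild-type replicate 1 (adjusted p = 0.12 and 0.30) or simr-1 replicate 1 (0.069 and 0.10), and eri-3 without simr-1 replicate 2 (0.14). With libraries scaled to genome-mapped reads the median of all genes was a log2 change of 0.37 in place of −0.10, and all 5 members still rose.

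In small RNA at 20C only rde-4 passed, with 151 and 161 RPM in wild-type and 147 and 145 RPM in the mutants. With TMM scaling over all 20 libraries, rde-4 overlapped between wild-type and mutants, at 204.7 to 219.8 and 200.8 to 205.0 CPM. It fell by 0.18 (SE 0.05, adjusted p = 0.0062), where 20.4% of all genes fell, and the call was lost with DESeq2 (adjusted p = 0.18) and with genome-mapped scaling (adjusted p = 0.11), under which dcr-1 and eri-1 rose by 0.15 and 0.16 (adjusted p = 0.017 and 0.048). dcr-1 read 124 and 123 RPM in wild-type and 139 and 134 RPM in the mutants, and its log2 difference of 0.06 did not pass. The difference between the simr-1 effects at generation 1 and at 20C passed for 3 members, where 23.7% of all genes passed upward. It was 1.5 for rde-4 (SE 0.09, adjusted p = 2.0e-10), 1.06 for dcr-1 (SE 0.08, adjusted p = 1.6e-09) and 0.82 for eri-1 (SE 0.10, adjusted p = 1.6e-06). The first 2 of these passed 2-fold, where 8.05% of all genes did. For eri-3 and eri-5 the differences were 0.20 (SE 0.10) and 0.10 (SE 0.20), with adjusted p of 0.10 and 0.74, and that of eri-3 passed without wild-type replicate 2 of generation 1 (0.28, adjusted p = 0.034).

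In wild-type between 20C and generation 1, small RNAs on 2 members fell and those on 1 rose, where 29.8% of all genes fell and 31.8% rose. rde-4 small RNAs fell by 1.69 (SE 0.09, adjusted p = 1.2e-11), past 2-fold, where 6.71% of all genes were. eri-1 fell by 0.37 (SE 0.09, adjusted p = 0.0023). eri-5 rose by 0.62 (SE 0.16, adjusted p = 0.0025), although its RPM read 16.4 and 13.6 at 20C and 11.4 and 14.0 at generation 1. The call was lost without wild-type replicate 2 of 20C (adjusted p = 0.060) and with DESeq2 (adjusted p = 0.11). With libraries scaled to genome-mapped reads, eri-5 had a log2 change of −0.24, and the median of all genes moved from 0.07 to −0.79. On that scale dcr-1 fell by 1.03 (adjusted p = 2.0e-10) and eri-3 fell by 0.97 (adjusted p = 7.8e-09), against −0.16 and −0.10 on the scale of reads on genes. Which of these scalings describes the worms was not tested.

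In the mutants between 20C and generation 1, small RNAs rose on 3 members, where 22.3% of all genes rose, and fell on 1, where 23.5% fell. dcr-1 rose by 0.68 (SE 0.04, adjusted p = 9.2e-08), eri-5 by 0.51 (SE 0.11, adjusted p = 0.0019) and eri-1 by 0.24 (SE 0.05, adjusted p = 0.0027). rde-4 fell by 0.40 (SE 0.04, adjusted p = 1.1e-05). dcr-1 and rde-4 moved in opposite directions in the same 4 libraries. The eri-1 call was lost with DESeq2 and with genome-mapped scaling (adjusted p = 0.065 and 0.16). eri-3 did not pass (−0.11, adjusted p = 0.074), and it passed as a fall without simr-1 replicate 1 of 20C (adjusted p = 0.047).

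At generation 2, small RNAs on 2 members rose in the mutants, where 22.9% of all genes rose. dcr-1 read 43.9 and 43.0 RPM in wild-type and 101 and 86.3 RPM in the mutants, and rose by 0.74 (SE 0.12, adjusted p = 1.9e-04). eri-1 rose by 0.50 (SE 0.13, adjusted p = 0.0053), and rde-4 had a log2 difference of 0.37 (SE 0.15, adjusted p = 0.052), which passed without wild-type replicate 1 or simr-1 replicate 2 (adjusted p = 0.014 and 0.0094).

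At generation 7, small RNAs on 3 members rose, where 20.1% of all genes rose, and 2 fell, where 26.5% fell. eri-1 rose by 0.32 (SE 0.06, adjusted p = 3.1e-04), dcr-1 by 0.26 (SE 0.05, adjusted p = 4.6e-04) and rde-4 by 0.16 (SE 0.05, adjusted p = 0.020). eri-3 small RNAs read 83.9 and 89.1 RPM in wild-type and 67.3 and 68.6 RPM in the mutants, and fell by 0.44 (SE 0.06, adjusted p = 1.5e-05). eri-5 read 27.1 and 22.2 RPM and 20.7 and 22 RPM, and fell by 0.29 (SE 0.10, adjusted p = 0.033). With TMM scaling over all 20 libraries, eri-5 overlapped between wild-type and mutants, at 34.6 to 39.5 and 35.6 to 37.3 CPM. The eri-5 call was lost without wild-type replicate 1 or simr-1 replicate 1 (adjusted p = 0.19 and 0.098), and the rde-4 call without wild-type replicate 2 or simr-1 replicate 1 (0.079 and 0.27), and DESeq2 lost both (0.24 and 0.10). Without wild-type replicate 2 the eri-5 value was −0.43 (adjusted p = 0.0038). At generation 10, 4 members rose, where 28.4% of all genes rose. dcr-1 read 111 and 113 RPM in wild-type and 165 and 175 RPM in the mutants, and rose by 0.54 (SE 0.07, adjusted p = 1.0e-04). eri-1 rose by 0.58 (SE 0.07, adjusted p = 6.0e-05), rde-4 by 0.49 (SE 0.07, adjusted p = 1.5e-04) and eri-5 by 0.34 (SE 0.12, adjusted p = 0.037). eri-3 had a log2 difference of 0.02 (SE 0.07). The eri-5 call was lost without any 1 of the 4 libraries (adjusted p = 0.070 to 0.13) and with DESeq2 (0.23).

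From generation 1 to generation 10 in wild-type, small RNAs on dcr-1 rose by 0.23 (SE 0.07, adjusted p = 0.024) and on rde-4 by 0.53 (SE 0.09, adjusted p = 6.6e-04), where 21.8% of all genes rose. Those on eri-3 fell by 0.25 (SE 0.08, adjusted p = 0.030) and on eri-5 by 0.44 (SE 0.16, adjusted p = 0.040), where 24.4% of all genes fell. Both falls turned with genome-mapped scaling, to 0.41 and 0.22, where the median of all genes was 0.63. On the scale of reads on genes the eri-3 and eri-5 calls were lost without replicate 2 of generation 1 (adjusted p = 0.13 and 0.29) or replicate 1 of generation 10 (0.073 and 0.072), and eri-5 without replicate 2 of generation 10 (0.12). The dcr-1 call was lost without replicate 1 of generation 1 (0.18) or either library of generation 10 (0.10 and 0.055), and DESeq2 lost all 3 (adjusted p = 0.29 to 0.39).

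In the mutants 0 members passed in either direction between these generations, where 20.7% of all genes passed by edgeR, 0 members had an unadjusted p under 0.05, and DESeq2 also called 0. With genome-mapped scaling 4 members fell, eri-3 by 0.30, dcr-1 by 0.23, eri-1 by 0.22 and rde-4 by 0.19 (adjusted p = 0.0037 to 0.035). Most of all genes that passed on that scale fell too. The simr-1 effect on small RNAs fell from generation 1 to generation 10 for 3 members, where 28.2% of all genes fell. It fell by 0.82 for rde-4 (SE 0.11, adjusted p = 1.2e-05), by 0.57 for dcr-1 (SE 0.10, adjusted p = 1.4e-04) and by 0.30 for eri-1 (SE 0.12, adjusted p = 0.047). The dcr-1 call was lost without wild-type replicate 1 of generation 1 or simr-1 replicate 1 of generation 10 (−0.32 and −0.30, adjusted p = 0.065 and 0.072). Without the former the rde-4 value was −0.53 (adjusted p = 0.0078), and the eri-1 call was lost when any of 7 of the 8 libraries was left out (adjusted p = 0.055 to 0.71).

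Markers of other cell types moved with these groups. The 7 oocyte markers summed to 7464 to 9462 CPM in wild-type at 20C, 1613 to 1967 CPM in wild-type at generation 1 and 8316 to 8680 CPM in simr-1 mutants at generation 1. All 7 fell at least 2-fold in wild-type from 20C to generation 1, and all 7 were at least 2-fold higher in the mutants at generation 1. The 7 germline markers summed to 3844 to 4358 CPM in wild-type at 20C, 2090 to 2213 CPM at generation 1 and 3335 to 3647 CPM in the mutants at generation 1. The 3 body wall muscle markers moved the other way, from 681 to 860 CPM at 20C to 1805 to 2262 CPM at generation 1 in wild-type, and read 835 to 1011 CPM in the mutants. At generation 2 oocyte markers were low in both genotypes, 1562 to 2676 CPM in wild-type and 2698 to 3573 CPM in the mutants. The 7 sperm markers summed to 44.5 to 57.4 CPM in the mutants at generation 2. They summed to 19.6 to 24.6 CPM in the mutants at generation 7 and to 28.5 to 31.2 CPM at generation 10. In all other groups they summed to 5.58 to 14.7 CPM. No oocyte, germline or body wall muscle marker was at 0 in any group of mRNA libraries.

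The mRNA libraries of wild-type at generations 1 and 2 and of simr-1 at generation 2 stood apart, with oocyte sums of 1562 to 3573 CPM against 6298 to 9633 CPM in the other groups, so no correlation with the markers is given. rde-4 read 70.2 to 115 CPM in the libraries with low oocyte sums and 127 to 257 CPM in the others. eri-1 read 43.8 to 70.1 CPM in the former and 75.1 to 109 CPM in the latter, and neither gene overlapped between these sets. The other 3 genes overlapped, with 27.5 to 47.6 against 44.0 to 95.9 CPM for eri-3, 79.8 to 191 against 167 to 322 CPM for dcr-1 and 26.6 to 46.7 against 34.6 to 63.0 CPM for eri-5. How many of all genes were apart between these sets was not counted. The part of oocyte, germline and muscle tissue in the differences between groups was not tested.

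**Figure D4:**
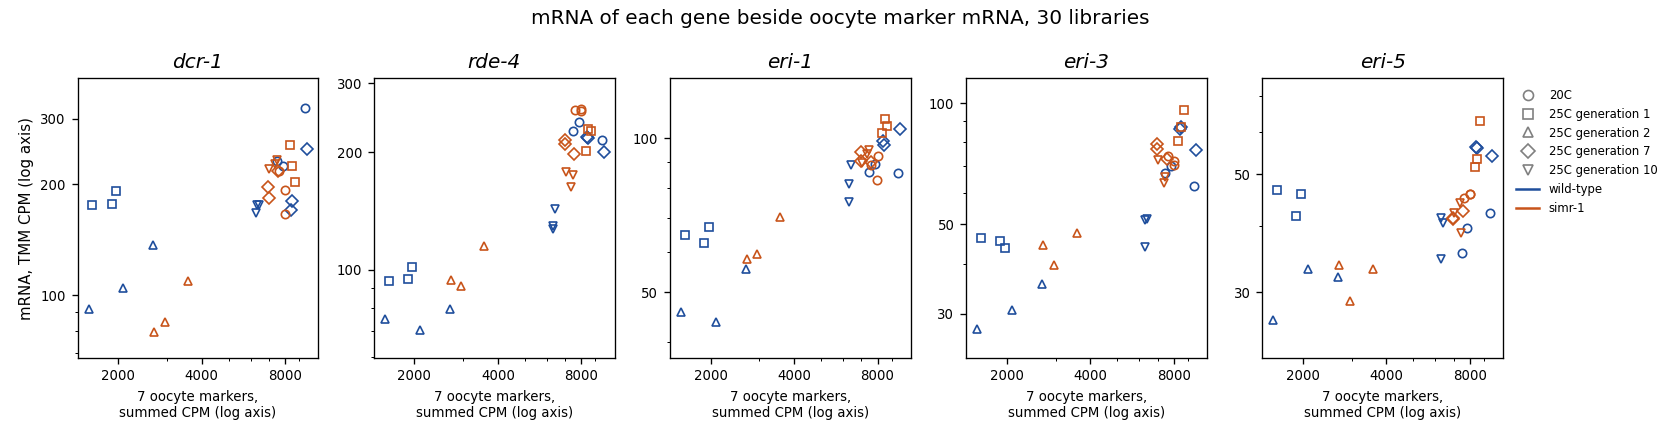
mRNA level in CPM of each of the 5 genes against the summed CPM of 7 oocyte markers, both on log axes, 1 point per mRNA library, with color for genotype and shape for condition. The wild-type libraries of generations 1 and 2 lie at the left, with oocyte sums of 1562 to 2676 CPM, and rde-4 is low in the same libraries.

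Among the members, mRNA levels over the 30 libraries were most alike for eri-1 and eri-3 (Pearson's r = 0.95) and for rde-4 and eri-3 (0.93), and least alike for dcr-1 and eri-5 (0.65). These r describe likeness over libraries that fall into the sets just named and share their scaling. Of 7825 genes whose average level reached 10 CPM, the pattern of rde-4 was most like those of klc-1 (0.99), him-10 (0.99) and F56C9.6 (0.99). For eri-3 they were rad-51 (0.98), sas-6 (0.98) and apn-1 (0.98). For eri-1 they were C01F1.6, gcc-2 and F12A10.8 (0.97 to 0.98), and for dcr-1 B0511.12, npp-21 and gon-4 (0.98 to 0.99). eri-5 stood further from its nearest genes, Y39A3CL.4, unc-69 and rab-35 (0.93 each). In small RNA the pattern of eri-1 over 20 libraries was most like trr-1, drh-1 and csn-5, out of 6632 genes, with r between 0.995 and 0.996.

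A list of 17 other genes of these small RNA pathways was counted, of which 16 were in the tables and drh-2 was not analysed here. At generation 1, 12 rose and 2 fell in simr-1 mutants as mRNA, with a median log2 change of 0.46 against −0.15 for all genes, where 31.8% of all genes rose and 36.7% fell. The Argonaute ergo-1 rose by 1.15 (SE 0.07, adjusted p = 5.5e-12) and drsh-1, the nuclease of microRNA processing, by 1.16 (SE 0.07, adjusted p = 1.2e-11). In wild-type from 20C to generation 1, 13 fell and 0 rose, where 31.4% of all genes fell and 42.7% rose. ergo-1 fell by 1.04, drsh-1 by 1.33 and alg-2, a microRNA Argonaute, by 1.46. At generation 10, 12 rose and 1 fell in the mutants, where 20.9% of all genes rose and 25.2% fell. At 20C 1 rose and 5 fell, 2 of them past 2-fold, with a median of −0.20, where 10.1% of all genes rose and 11.9% fell. At generation 2, 4 rose, 2 of them past 2-fold, and 5 fell, with a median of 0.02, where 22.1% of all genes rose and 20.7% fell. At generation 7, 4 rose, 2 of them past 2-fold, and 0 fell, where 15.0% of all genes rose. The pathway genes past 2-fold at 20C and at generations 2 and 7 are not named here.

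As small RNA, 12 of the 16 rose and 2 fell in the mutants at generation 1, where 35.7% of all genes rose and 33.9% fell, with a median of 0.75 against −0.10. rrf-3, the polymerase of the ERI complex, rose by 1.26 (SE 0.07, adjusted p = 1.8e-08), and its RPM was 60.3 to 64.5 in wild-type and 202 to 215 in the mutants. drh-3 and drh-1, Dicer-related helicases, rose by 1.22 and 1.16, rde-1, the Argonaute of exogenous RNAi, by 1.29 and alg-2 by 2.41. eri-6, a helicase gene, went the other way and fell by 1.09 (SE 0.08, adjusted p = 3.0e-07). At 20C 2 rose and 1 fell, the latter past 2-fold, where 13.9% of all genes rose and 20.4% fell. At generation 2, 10 rose and 2 fell, 1 of the latter past 2-fold, where 22.9% of all genes rose and 26.2% fell. At generation 7, 8 rose and 3 fell, where 20.1% rose and 26.5% fell. At generation 10, 11 rose, 1 of them past 2-fold, and 1 fell, where 28.4% of all genes rose and 31.1% fell. eri-6 small RNAs then read 41711 to 63970 RPM in the mutants against 11289 to 11879 RPM in wild-type, after 3530 to 4351 RPM in the mutants at generation 1.

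Neighbours here were genes that overlap a member, and the nearest gene on each side on the member's own strand. Other genes on the opposite strand were not looked at. The neighbours did not share 1 direction. At generation 1, of 9 neighbours tested in each assay, 3 rose and 3 fell as mRNA and 5 rose and 3 fell as small RNA in the mutants. At generation 1 daf-18, which overlaps eri-1, was higher in simr-1 mutants by 1.58 as mRNA (adjusted p = 1.9e-13) and by 1.45 as small RNA (adjusted p = 4.0e-09). taf-6.1, next to eri-3, rose by 0.94 as mRNA and by 1.11 as small RNA, the latter more than eri-3 itself at 0.32. trap-3, which ends 434 bases before eri-5, rose by 1.14 as mRNA and by 0.92 as small RNA. On the antisense neighbour Y38F2AR.10 small RNAs fell by 1.89 (adjusted p = 2.5e-08), while those on eri-5 rose. cts-1, next to rde-4, fell by 0.19 as mRNA (adjusted p = 0.026) and rose by 0.76 as small RNA (adjusted p = 1.1e-04), while rde-4 rose in both. K06H7.7, the same-strand neighbour 3410 bases from dcr-1, rose by 1.22 as small RNA (adjusted p = 2.4e-06), close to dcr-1 at 1.25. It had an mRNA difference of −0.02 (adjusted p = 0.84). kgb-1 and Y66H1A.5, on either side of eri-1 and daf-18, fell by 1.13 and 0.71 as mRNA, and both fell as small RNA (adjusted p = 0.017 and 5.0e-04).

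The 14 single small RNA libraries of 20C hold 1 wild-type and 13 mutant strains. With 1 library per strain there is no test, and intervals cover counting error only. Small RNAs on the mutated gene were lower than in the single wild-type library for 12 of 15 mutated genes looked at. The exceptions were higher than in wild-type. rde-8 read 35.6 against 20.1 RPM in the library labelled rde-8. Y57G11C.3 read 78.0 against 66.5 RPM in the library labelled Y57G11C.3. In the nyn double mutant nyn-2 read 70.7 against 38.5 RPM, and nyn-1 read 3.58 against 105 RPM. Small RNA reads alone cannot decide whether a library carries its labelled mutation. The wild-type library read 132 RPM on dcr-1, 122 on rde-4, 80.3 on eri-3, 52.6 on eri-1 and 13.9 on eri-5.

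In the mut-16 library, which lacks a scaffold of siRNA amplification, dcr-1 small RNAs read 291 RPM, a log2 ratio to wild-type of 1.14 (95% interval 1.05 to 1.22). It was the 1 member past 2-fold there, where 13% of all 6689 genes that reached 10 RPM in the wild-type library were up by as much. eri-5, eri-1 and rde-4 had log2 ratios of 0.84, 0.75 and 0.60, and eri-3 had 0.02 (−0.14 to 0.18), with a median of 0.43 over all genes. In the library labelled as the nyn double mutant, named for proteins with NYN nuclease domains, the 5 ratios were 0.59 to 0.83 with a median of 0.39 over all genes. In the library labelled rde-8, named for a ribonuclease of siRNA amplification, they were 0.28 to 0.75 with a median of 0.31, and in the wago-1 library, lacking an Argonaute, 0.42 to 0.76 with a median of 0.47. The math-33 library stood at the other end. There 3 members were down 2-fold, where 45.8% of all genes were, with ratios of −1.83 for dcr-1, −1.23 for eri-3 and −1.06 for rde-4. Its label gives Day 1 Adult, while the study's strain table lists it as asynchronous, so strain and stage cannot be told apart. In the C33G3.6 library dcr-1 and rde-4 had ratios of −0.72 and −0.90, eri-1 and eri-3 had −0.19 and −0.20, and eri-5 had 0.26, with a median of −0.37 over all genes. In the single simr-1 library the ratios were 0.06 to 0.42 with a median of 0.26 over all genes.

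**Figure D5:**
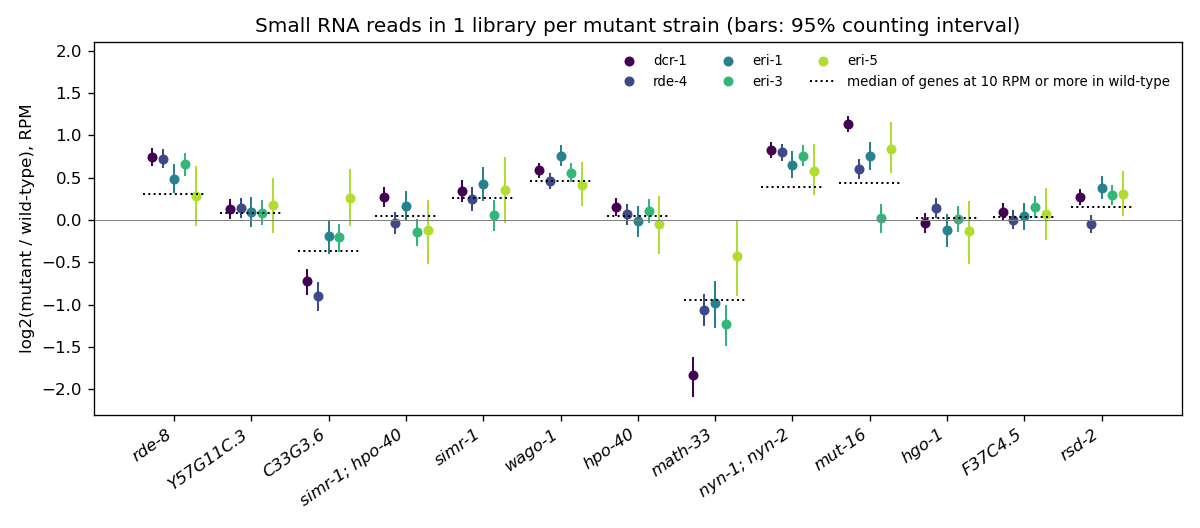
log2 ratio of small RNA RPM in each of 13 single mutant libraries to the single wild-type library for the 5 genes, with 0.5 RPM added to both; vertical lines are 95% counting intervals and dotted lines the medians over genes that reached 10 RPM in the wild-type library. dcr-1 spans from −1.83 in the math-33 library to 1.14 in the mut-16 library.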

How the data were processed

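Whole-worm small RNA and mRNA libraries were sequenced by the study. For small RNA, the deposited files hold expected counts, whole and fractional, made per gene by the authors from Bowtie2 alignments with featureCounts of the Subread package, against WS258 genes without miRNAs and piRNAs, without strand, and with reads of several genes split between them. The deposited mRNA tables hold expected counts, estimated by the authors per gene name; the methods name Cutadapt, HISAT2 and Salmon, and which of these gave the table is not given in the sources used here. Of 46970 lines per mRNA table, 1066 repeated a name and were summed, giving 45904 names.

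Counts were rounded to whole numbers. Genes whose counts in the libraries of a comparison came to 10 or more in all were tested with edgeR 4.0.16 (R 4.3.3; TMM, quasi-likelihood test, Benjamini-Hochberg adjustment over all genes tested), each comparison on its own libraries. A gene rose or fell at adjusted p of at most 0.05, and 2-fold calls in small RNA also needed 10 RPM in a group. DESeq2 1.42.0, other scalings and filters, all groups in one fit, a replicate block and leaving out each library were alternatives. The tests were run on simulated independent counts with a single fixed spread. This setting differs from the libraries, so it cannot give the error rates of the tests here. RPM divides by the genome-mapped reads that the study gives. Single libraries were compared after adding 0.5 RPM. The 95% intervals of the ratios were exact binomial intervals on the counts of the mutant and the wild-type library, with no RPM added. Sequences came from the C. elegans reference (WBcel235).

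No library pair held identical values. By the deviations of 7825 genes from their group means, the replicate numbers paired the genotypes for mRNA at generations 7 and 10. Correlations were 0.414, 0.47 and 0.645 at generation 7 and 0.226, 0.104 and 0.309 at generation 10. The block changed no call of the 5 genes there. At generation 2 the correlations were 0.656, 0.28 and 0.0485 for mRNA, and calls moved with the block. The genes reported, the pathway and marker lists and the rule to name only members, pathway genes past 2-fold, neighbours and the 3 most alike genes were chosen with earlier results of these data known.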

Additional observations from a re-analysis of the deposited data

Results flagged for a closer look

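The effect of simr-1 differed between conditions, by a test of the difference itself, in 13 cases among the 5 genes. From 20C to generation 1 at 25C the log2 difference in mRNA was 1.03 for rde-4, 0.87 for eri-3, 0.79 for dcr-1 and 0.72 for eri-1. In small RNA it was 1.5 for rde-4, 1.06 for dcr-1 and 0.82 for eri-1. Of all genes, 25.9% passed upward in mRNA and 23.7% in small RNA. From generation 1 to generation 10 the mRNA difference was −0.65 for rde-4, −0.37 for eri-1 and −0.35 for eri-3. The small RNA difference was −0.82 for rde-4, −0.57 for dcr-1 and −0.30 for eri-1. Of all genes, 19.4% passed downward in mRNA and 28.2% in small RNA. With 1 library left out, these dcr-1 and eri-1 small RNA values ranged from −0.61 to −0.30 and from −0.35 to −0.09. All 13 differences use the libraries of generation 1. In these the oocyte markers summed to 1613 to 1967 CPM in wild-type and to 8316 to 8680 CPM in the mutants. The part of oocytes in these differences was not tested.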

How the results depend on the processing

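Of the log2 changes of the 5 genes under each alternative, 1272 kept their direction and side of the threshold, 96 lost the call, 53 gained one and 59 changed sign; of the counts of members past the test, 259 stayed within 1.5 times and 37 did not. Small RNA groups held 2 libraries, so leaving 1 out left a lone library assumed to vary like the others. eri-5 had the lowest small RNA level of the 5 genes, which limits the precision of its values. Except where a scaling or an omitted library is named, the cause was not tested.

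Scaled by library totals alone, the members past the test for mRNA were 3 at 20C (1 otherwise), 4 in wild-type from generation 1 to 10 (2 otherwise) and 1 in simr-1 over the same generations (3 otherwise). For small RNA they were 5 in wild-type from 20C to generation 1 (3 otherwise), 2 in wild-type from generation 1 to 10 (4 otherwise) and 2 in simr-1 (0 otherwise). With genome-mapped reads they were 2 at 20C, 4 in simr-1 from generation 1 to 10, and 5 for both differences between simr-1 effects. With DESeq2 they were 0 at 20C, 3 at generations 1 and 7, and 1 in wild-type from generation 1 to 10. With all groups in one fit they were 0, 3, 3 and 2 in the same order. filterByExpr gave 3 at generation 1 and 1 for the difference from generation 1 to 10, and no filter gave 2 in wild-type from generation 1 to 10. Against the replicated wild-type of 20C, 1 member in the single C33G3.6 library was past 2-fold in place of 0.

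Leaving out 1 library at a time, members past the test for mRNA ranged from 0 to 2 at 20C, 1 to 2 at generation 7 and 0 to 4 in simr-1 from generation 1 to 10. For small RNA they ranged from 3 to 5 at generations 1 and 7, from 1 to 3 in wild-type from generation 1 to 10, and from 1 to 3 for the difference in simr-1 effect over those generations.

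Most mRNA values that changed sign were near 0. At 20C eri-1 read 0.053 with library totals and 0.017 with all groups. At generation 2 eri-5 ranged from −0.017 to 0.12 with a library left out. At generation 7 dcr-1 read −0.0050 with all groups and ranged from −0.041 to 0.26 with a library left out, rde-4 read −0.029 with all groups, and with library totals eri-1 read 0.046 and eri-3 0.049. With library totals, wild-type from generation 1 to 10 gave 0.14 for dcr-1 and 0.0021 for eri-5, simr-1 gave 0.072 for eri-1, and the change of simr-1 effect from 20C gave −0.046 for eri-5. In simr-1 over those generations dcr-1 read −0.0039 with all groups, and eri-1 read 0.0066 with filterByExpr and ranged from −0.042 to 0.019 with a library left out. The change of effect to generation 10 for eri-5 ranged from −0.28 to 0.043 with a library left out.

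For small RNA at 20C, eri-3 read 0.019 with RLE and with DESeq2, 0.018 with library totals, 0.029 with no filter, 0.11 with all groups and 0.078 with genome-mapped reads, and ranged from −0.046 to 0.029 with a library left out. At generation 2 eri-3 read 0.059 with library totals, 0.037 with no filter, 0.019 with all groups and 0.25 with genome-mapped reads, and eri-5 ranged from −0.051 to 0.24 with a library left out. At generation 10 eri-3 read −0.0063 with no filter, −0.0075 with filterByExpr and −0.012 with all groups, and ranged from −0.043 to 0.099 with a library left out. In wild-type from 20C to generation 1, eri-3 ranged from −0.15 to 0.0032 with a library left out, and eri-5 read −0.24 with genome-mapped reads. In wild-type from generation 1 to 10, eri-1 read 0.16 with library totals, 0.051 with no filter, 0.17 with all groups and 0.63 with genome-mapped reads, and ranged from −0.10 to 0.0074 with a library left out, while genome-mapped reads gave 0.41 for eri-3 and 0.22 for eri-5. In simr-1 rde-4 ranged from −0.054 to 0.010 with a library left out. The change of effect from 20C for eri-5 read −0.085 with no filter, −0.070 with filterByExpr and −0.041 with all groups, and ranged from −0.077 to 0.27 with a library left out. For the change of effect to generation 10, filterByExpr gave 0.042 for eri-1 and 0.18 for eri-3, and eri-3 ranged from −0.17 to 0.12 with a library left out. eri-5 read −0.0044 with library totals, −0.054 with no filter and −0.50 with genome-mapped reads, and ranged from −0.042 to 0.41 with a library left out.

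At generation 2 the deviations also correlated between genotypes by replicate number, at 0.656, 0.28 and 0.0485 for mRNA and 0.364 for small RNA. The labels do not say whether these libraries were paired, and the main tests used no replicate block. Outside mRNA at generations 7 and 10 the block was run as well. There the replicate block added calls for dcr-1 mRNA at generation 2 (−0.29, adjusted p = 0.0097, edgeR) and in simr-1 from generation 1 to 10 (0.17), for rde-4 small RNA at generation 2 (0.36) and for dcr-1 small RNA in wild-type from 20C to generation 1 (−0.16), and lost eri-5 small RNA at generation 10 (0.34, adjusted p = 0.073). The deviations of small RNA libraries at generation 10 correlated at −0.139, and a crossed pairing, added after seeing the data, called 4 members against 3 with the block as numbered.

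Counts over all genes past adjusted p of 0.05 moved by over 1.5 times in these cases. For mRNA they went from 3232 to 2105 and 1691 at 20C without simr-1 replicate 1 or 3, and from 4578 to 2454 and 2601 at generation 7 without simr-1 replicate 1 or 2. For small RNA, DESeq2 gave 3165 in place of 5196 at 20C, 4609 in place of 6994 at generation 7, 3955 in place of 7002 in simr-1 from 20C to generation 1, 3614 in place of 6487 in wild-type from generation 1 to 10, 1529 in place of 2815 in simr-1 over those generations (4557 with genome-mapped reads), and 3808 in place of 6154 for the change of effect to generation 10. The last was 4048 with filterByExpr and 3833 to 4075 without wild-type replicate 1 or 2 of generation 1 or simr-1 replicate 1 of generation 10. Genome-mapped reads moved the genes past 2-fold from 1544 to 2597 at generation 2, from 2236 to 4686 and 1482 to 2780 in wild-type from 20C to generation 1 and from generation 1 to 10, and from 2524 to 4206 and 1709 to 4179 for the changes of effect. For mRNA, filterByExpr gave 1394 in place of 2191 in simr-1 from generation 1 to 10.

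Scaling also moved the share of changed genes that rose. With library totals, for mRNA, it went from 45.9 to 68.2% at 20C, 51.7 to 70.1% at generation 2, 55.2 to 78.7% at generation 7, 45.4 to 32.3% at generation 10, 49.6 to 60.4% in wild-type and 50.8 to 70.6% in simr-1 from generation 1 to 10, and 51.1 to 39.9% for the change of effect from 20C. RLE moved the mRNA change of effect to generation 10 from 56.8 to 46.6%. With genome-mapped reads, for small RNA, it went from 40.5 to 52.7% at 20C, 51.3 to 62.6% at generation 1, 46.7 to 63.4% at generation 2, 51.7 to 24.8% in wild-type and 48.7 to 32.5% in simr-1 from 20C to generation 1, 47.2 to 78.4% in wild-type and 50.7 to 23.7% in simr-1 from generation 1 to 10 (60.5% and 27.1% with library totals), 53.5 to 72.4% for the change of effect from 20C and 26.8 to 13.3% for that to generation 10.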
